A study of Homo sapiens with 9 samples.

Results

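The 10 genes described here, FOS, FOSB, FOSL1, JUN, JUNB, EGR1, IER3, ETV4, ETV5 and DUSP6, are immediate early and MAPK feedback genes. They were chosen by name, with earlier results of these data known, and all 10 were found among the 36385 genes of the deposited table and passed the filter on low counts in each comparison. RNA was sequenced from MG-63 cells, a human osteosarcoma line that stands in for osteoblasts, on 3 surfaces with 3 libraries each: bare Ti6Al4V (called here bare alloy), Ti6Al4V+TiB2 (called here TiB2) and boronized Ti6Al4V/HA (called here HA coating). All 9 libraries shared an osteogenic induction of 7 days in DMEM (100 nM dexamethasone, a glucocorticoid, with ascorbic acid at 50 µg/mL and beta-glycerophosphate at 10 mM) and 1 batch label, so no library shows the cells without induction or at an early time. The labels state that the TiB2 libraries did not enter the final analysis, and nothing in them tells whether a surface's libraries are separate cultures. The p-values therefore speak for the scatter of these libraries, possibly a technical one. In bulk RNA, fewer cells of a kind and less RNA per cell cannot be told apart. MG-63 is 1 tumour line, labelled as epithelial-like.

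Growth factors, cytokines and contact with a surface can act through kinase cascades that end in the MAP kinases ERK, JNK and p38. These kinases switch on immediate early genes without new protein synthesis, usually for a short time. FOS and JUN family proteins pair to form AP-1, a factor that binds many matrix, protease and inflammatory genes. EGR1 is a zinc finger factor, and IER3 is a small protein linked to cell survival and NF-kB. ETV4 and ETV5 are ETS factors of the PEA3 group that ERK activity raises, and DUSP6 is the phosphatase that removes phosphate from ERK and so limits the signal.

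Library totals ranged from 58464306 to 72542556 counts. In bare alloy replicate 1, 6.48% of all counts lay in 31 ribosomal DNA rows, against 0.0837% to 1.07% in the other 8 libraries. All 8 mesenchymal and osteoblast markers were detected on each surface, with summed levels in CPM (counts scaled to a common library size with TMM factors) of 18476 to 20123 for bare alloy, 9748 to 10185 for TiB2 and 6355 to 10552 for the HA coating. Abundant members such as COL1A1 (3049, 1292 and 1141 CPM on bare alloy, TiB2 and HA coating) carried these sums, while ALPL, the alkaline phosphatase of osteoblasts, stood at 1.72, 12.9 and 11.02 CPM in the same order. The sums were 138 to 217 CPM for 7 epithelial markers, 58.3 to 95.5 CPM for 8 macrophage and leukocyte markers and 11.3 to 38.1 CPM for 5 endothelial markers. CDH5 made up most of the endothelial sum on bare alloy (24.9 CPM, against 3.10 on TiB2 and 2.22 on the HA coating), whereas PECAM1 was highest on the HA coating (6.46, 6.29 and 9.11 CPM). A set of 22 genes parted bare alloy replicate 1 and the 3 HA coating libraries (4 libraries) from the other 5, each detected on a single side (20 counts or more per library there, 3 or fewer elsewhere). The summed level of 12 T cell markers followed this split: it was 0.601 CPM in bare alloy replicate 1, 10.9 and 13.8 CPM in replicates 3 and 2, and 13.5 to 16.1 CPM for TiB2. The HA coating had 0.802 to 1.6 CPM, where 6 of the 12 (CD3D, CD3E, CD3G, CD2, LCK and TRBC1) were at 0. The part of these library differences in the results was not tested, and for HA coating against TiB2 the split and the surface cannot be told apart.

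Per gene length, the AP-1 genes JUNB and JUN were the most abundant of the 10 on bare alloy, at 64.1 ± 20.2 and 48.9 ± 9.39 FPKM (counts scaled by gene length and library size; mean ± SD, n = 3), with overlapping libraries. FOSL1 followed at 19.7 FPKM, IER3 at 15.2, ETV5 at 14.3, DUSP6 at 7.13, EGR1 at 5.02 and ETV4 at 1.9 FPKM. FOS and FOSB, the members most tied to acute stimulation, were last at 0.342 ± 0.11 and 0.244 ± 0.213 FPKM. In that order IER3 overlapped with ETV5, and FOS with FOSB, while the other neighbours below JUN did not overlap. On TiB2 IER3 stood second at 93.4 ± 18.6 FPKM, overlapping with JUNB (100.3 ± 9.08 FPKM), followed by JUN at 32.9 ± 1.69 FPKM. On the HA coating IER3 (64.6 ± 26.5 FPKM) again stood second beside JUNB (65.4 ± 25.3 FPKM), and JUN (19.2 ± 5.72 FPKM) overlapped with FOSL1 above it and DUSP6 below it.

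**Figure D1:**
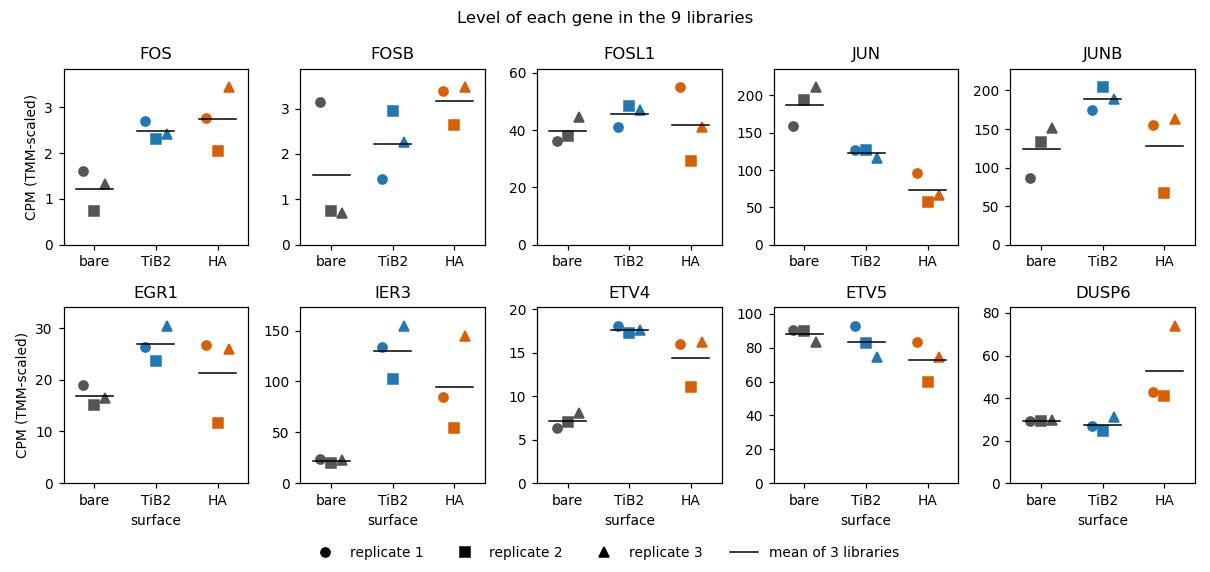
Level of each of the 10 genes in CPM (TMM-scaled, vertical axes from 0) in the 9 libraries, by surface, with 1 symbol per replicate number and a line at the mean of 3 libraries. JUN sits lower and IER3 and ETV4 higher on both coated surfaces, DUSP6 is higher on the HA coating, and HA coating replicate 2 is the lowest of its surface in each panel.

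The first comparison, TiB2 against bare alloy, sets the TiB2 surface, without HA in its label, against the uncoated alloy. IER3 was 5.93-fold higher on TiB2, ETV4 2.46-fold, FOS 2.03-fold, EGR1 1.59-fold and JUNB 1.53-fold, while JUN was 1.53-fold lower. So 5 of the 10 genes rose, 1 fell and 4 did not pass (edgeR quasi-likelihood test, Benjamini-Hochberg adjusted p under 0.05). Of all 20152 genes tested, 12.9% rose, 12.2% fell and 25.1% were called in either direction. The median log2 fold change of the 10 was 0.58, against 0.00 for all genes, a description of genes that were not chosen blind to these data. The same 5 genes lay higher and JUN lower in all 3 TiB2 libraries than in all 3 bare alloy libraries, a separation seen upward in 20.9% and downward in 21.2% of all genes. With all 9 libraries sharing a spread, IER3 and ETV4 alone kept their calls.

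The second comparison, HA coating against bare alloy, concerns the surface named in the title of the series. IER3 was 4.27-fold and ETV4 2.00-fold higher on the HA coating, and JUN was 2.57-fold lower. So 2 of the 10 genes rose, 1 fell and 7 did not pass, against 5.02% of 20117 genes up, 4.88% down and 9.89% in either direction. The median log2 fold change of the 10 was again 0.58, against 0.02 for all genes; both comparisons share the bare alloy libraries. FOS and DUSP6 missed the threshold (edgeR adjusted p = 0.0716 and 0.0524), although all 3 HA coating libraries lay above all 3 bare alloy libraries for both. That separation upward held for FOS, IER3, ETV4 and DUSP6 (17.1% of all genes) and downward for JUN (17.4%). DESeq2, limma on log2(FPKM + 1), the fit of all 9 libraries and an offset for GC content and length each called FOS and DUSP6 as well. With 1 library left out, edgeR called FOS in 0 of 6 fits and DUSP6 in 2 of 6. Against bare alloy replicate 1 alone, the library on the same side of the 22-gene split, none of the 10 passed, at log2 fold changes of 2.01 for IER3, 1.19 for ETV4, -1.11 for JUN, 0.85 for DUSP6 and 0.79 for FOS. Without that library and HA coating replicate 2 none passed either, at 2.43, 1.09, -1.32, 0.98 and 1.59 in the same order. In these smaller fits 286 and 115 genes of the whole table were called, and the lone bare alloy library is assumed to vary like the HA coating libraries.

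The third comparison, HA coating against TiB2, tests directly whether the coated surfaces differ. None of the 10 genes passed edgeR's adjusted threshold, against 0.632% of 20086 genes (0.179% up and 0.453% down). At an unadjusted p under 0.05 edgeR had 2, DUSP6 upward and JUN downward. DESeq2 called the same pair (adjusted p = 0.014 and 0.0353), and limma on FPKM called none. The intervals were wide: 95% limits of the log2 difference ran from 0.40 to 1.45 for DUSP6, -1.22 to -0.29 for JUN, -1.23 to 0.08 for JUNB and -1.19 to 0.23 for IER3. In this comparison 1 gene (DUSP6) lay higher in all HA coating libraries and 3 (JUN, JUNB, ETV4) lay lower, where 8.54% and 9.51% of all genes did.

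**Figure D2:**
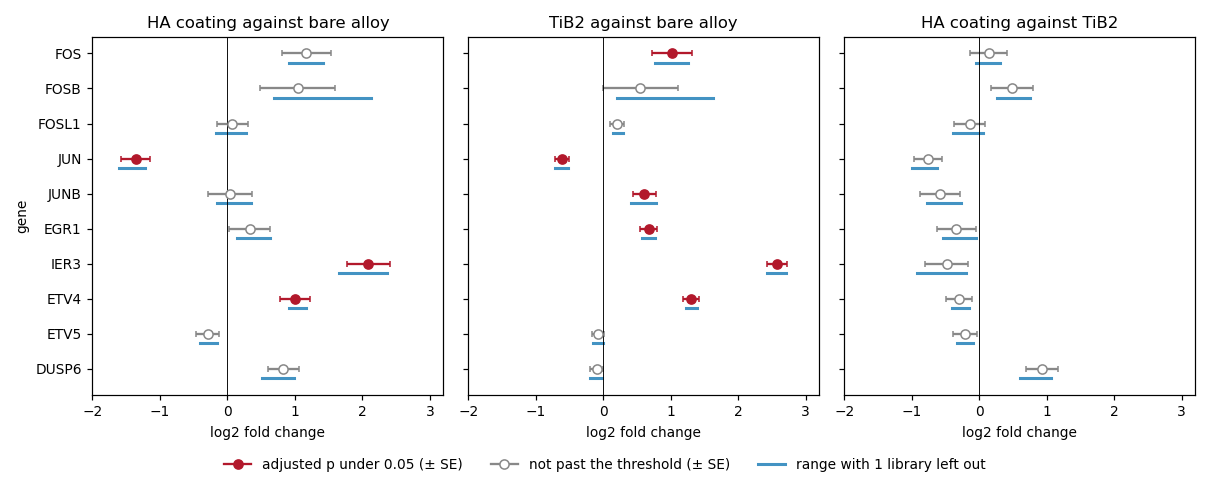
log2 fold change of each of the 10 genes (horizontal axes) in the 3 comparisons, with bars of 1 SE from edgeR, filled red where the adjusted p is under 0.05, and a blue line for the range over the 6 fits that leave out 1 library. On TiB2 6 genes are red, on the HA coating 3 (JUN, IER3 and ETV4), and between the coatings none.

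The promoters of EGR1, FOS, JUN and JUNB are shown because these 4 of the 6 genes called on TiB2 had an entry in the RefSeq promoter table (GRCh38.p14), which matched 6 of the 10 genes. Each is the 150 bases before the annotated start, read 5′ to 3′ on the gene's strand. Capitals mark matches, on either strand, to the CArG box (the site of serum response factor), the motif TGACGT bound by CREB and ATF factors, the AP-1 and ATF motif TGACNTCA and the ETS motif CGGAAG. A match is a description of the letters and not a sign of binding.
EGR1, chr5:138465329-138465478, plus strand: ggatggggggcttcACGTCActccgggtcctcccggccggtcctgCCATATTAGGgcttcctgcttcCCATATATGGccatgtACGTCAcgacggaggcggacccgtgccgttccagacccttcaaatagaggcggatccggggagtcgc
FOS, chr14:75278678-75278827, plus strand: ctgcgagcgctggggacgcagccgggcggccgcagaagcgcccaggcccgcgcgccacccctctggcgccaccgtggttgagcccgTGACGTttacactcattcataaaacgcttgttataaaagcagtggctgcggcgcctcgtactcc
JUN, chr1:58784048-58784197, minus strand: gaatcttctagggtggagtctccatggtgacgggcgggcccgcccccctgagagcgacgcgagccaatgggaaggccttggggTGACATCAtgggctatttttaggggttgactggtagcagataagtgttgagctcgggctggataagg
JUNB, chr19:12791336-12791485, plus strand: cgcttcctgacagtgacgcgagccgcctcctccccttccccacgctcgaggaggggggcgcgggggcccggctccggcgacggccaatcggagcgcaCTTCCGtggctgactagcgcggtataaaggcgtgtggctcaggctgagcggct

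Over the 250 bases before the start, EGR1 held 2 CArG boxes, starting 105 and 83 bases before the start, and 2 copies of TGACGT. A CArG box was found in 1.16% of all 35116 promoters of that length and TGACGT in 7.1%. FOS held TGACGT 64 bases before its start, and FOSB held it 60 bases before its own. JUN held TGACNTCA, as TGACATCA, 67 bases before its start, a motif found in 6.87% of promoters and able to overlap with TGACGT. JUNB and DUSP6 each held CGGAAG, found in 16.5%, at 53 and 62 bases before the start. The AP-1 motif TGANTCA, found in 6.57% of promoters, had no match in these 6 windows.

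JUN encodes c-Jun, the AP-1 partner that JNK phosphorylates (ENSG00000177606, GRCh38 chromosome 1, 58776845 to 58784048). It lay at 159, 193 and 211 CPM in bare alloy replicates 1 to 3, at 126, 127 and 116 CPM on TiB2 and at 95.5, 57.7 and 66.6 CPM on the HA coating. The 3 surfaces did not overlap: every TiB2 library was below every bare alloy library, and every HA coating library below every TiB2 library. JUN fell by 0.61 ± 0.10 (log2, SE) on TiB2 (edgeR adjusted p = 0.00211) and by 1.36 ± 0.22 on the HA coating (edgeR adjusted p = 0.00723). Both calls held without any 1 library. The TiB2 call alone was lost with a spread shared by all 9 libraries (edgeR adjusted p = 0.0634). Between the coatings the difference was -0.76 ± 0.21 and did not pass (edgeR adjusted p = 0.201). It passed with DESeq2 and in 1 of 6 fits with 1 library left out, that without HA coating replicate 1 (-1.0, edgeR adjusted p = 0.0196).

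JUNB encodes a Jun protein with weaker activating power that can oppose c-Jun (ENSG00000171223, chromosome 19, 12791486 to 12793315). Its levels were 86.9, 134 and 151 CPM on bare alloy, 174, 204 and 189 CPM on TiB2 and 155, 66.6 and 163 CPM on the HA coating. Bare alloy replicate 1 and HA coating replicate 2 stood low within their surfaces, and HA coating and bare alloy overlapped. JUNB rose by 0.61 ± 0.17 on TiB2 (edgeR adjusted p = 0.0272). That call held in 2 of 6 fits with 1 library left out, and without bare alloy replicate 1 the difference was 0.41 (edgeR adjusted p = 0.0226). The HA coating difference was 0.04 ± 0.33 (edgeR adjusted p = 0.952), with a sign that turned between settings.

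The ratio of JUN to JUNB, chosen after the values were seen, needs no scaling between libraries and set bare alloy apart from both coated surfaces. In FPKM it was 0.927, 0.73 and 0.705 on bare alloy, 0.366, 0.315 and 0.309 on TiB2 and 0.31, 0.437 and 0.207 on the HA coating. Each coated library lay below each bare alloy library, and the coated surfaces overlapped. Of the summed FPKM of JUN, JUNB and JUND, the share of JUN was 36.1% to 44.2% (bare alloy), 20.04% to 23.1% (TiB2) and 16.0% to 28.4% (HA coating). JUND, the Jun gene that is usually least inducible, lay at 30.2 CPM on bare alloy, 42.4 on TiB2 and 15.95 on the HA coating and passed in no comparison (edgeR adjusted p = 0.180 to 0.236). Reads of JUNB that lie in its overlap with HOOK2 on the other strand cannot be assigned where counting ignores strand, which the sources used here do not state.

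**Figure D3:**
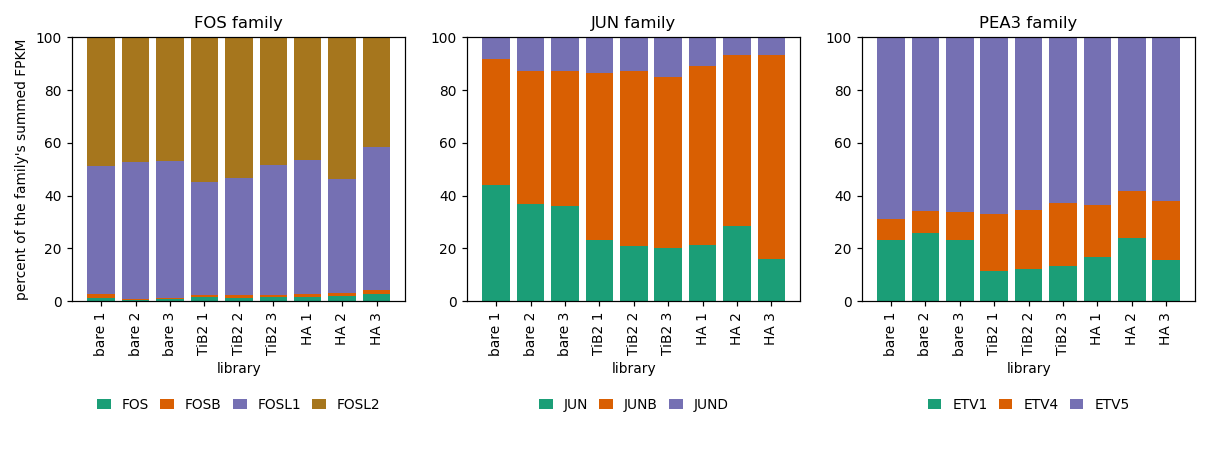
Share of each gene in the summed FPKM of the FOS family, the JUN family and the PEA3 family (percent, vertical axis from 0 to 100) in each of the 9 libraries. JUN takes 36.1% to 44.2% of the JUN family on bare alloy and at most 28.4% on the coated surfaces, and ETV4 takes 7.94% to 10.5% of the PEA3 family on bare alloy and at least 17.6% on the coated surfaces.

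FOS encodes c-Fos, the classical serum-induced AP-1 subunit (ENSG00000170345, chromosome 14, 75278826 to 75282230). Its counts per library were 47 to 88 (bare alloy), 150 to 171 (TiB2) and 132 to 227 (HA coating). In CPM the bare alloy libraries had 1.60, 0.735 and 1.32, the TiB2 libraries 2.70, 2.32 and 2.41, and the HA coating libraries 2.78, 2.06 and 3.43. Each coated library lay above each bare alloy library, and the coated surfaces overlapped. The log2 difference was 1.02 ± 0.30 on TiB2 (edgeR adjusted p = 0.0335) and 1.17 ± 0.36 on the HA coating (edgeR adjusted p = 0.0716; 0.0232 to 0.219 over the other settings that were tried). The TiB2 call held in 1 of 6 fits with 1 library left out, that without bare alloy replicate 1 (edgeR adjusted p = 0.0209). FOS made up 0.573% to 2.64% of the summed FPKM of the 4 FOS family genes.

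FOSB encodes a c-Fos relative known for its long-lived short form (ENSG00000125740, chromosome 19, 45467995 to 45475179). It lay at 3.15, 0.735 and 0.691 CPM on bare alloy, 1.45, 2.95 and 2.27 CPM on TiB2 and 3.38, 2.63 and 3.46 CPM on the HA coating. Bare alloy replicate 1 was thus within the range of the HA coating, and the other bare alloy libraries were below every coated library. FOSB did not pass on TiB2 (0.55 ± 0.56, edgeR adjusted p = 0.530) or on the HA coating (1.04 ± 0.55, edgeR adjusted p = 0.256). Without bare alloy replicate 1 it passed in both, at 1.63 (edgeR adjusted p = 0.0131) and 2.13 (edgeR adjusted p = 0.0154). Against that library alone the HA coating difference was 0.02. FOSB overlaps with ERCC1, a DNA repair gene on the other strand with 5443 to 7369 counts, so its 42 to 229 counts are uncertain if strand was not used.

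FOSL1 encodes Fra-1, a Fos protein that lacks the main activation domain of c-Fos and builds up under lasting ERK activity (ENSG00000175592, chromosome 11, 65892049 to 65900419). It lay at 36.3, 38.02 and 44.4 CPM on bare alloy, 41.1, 48.6 and 46.9 CPM on TiB2 and 54.9, 29.3 and 41.2 CPM on the HA coating. The 3 surfaces overlapped, and the HA coating libraries were the most scattered. The log2 difference was 0.20 ± 0.10 on TiB2 (edgeR adjusted p = 0.191) and 0.07 ± 0.23 on the HA coating (edgeR adjusted p = 0.874). Its 95% limits were -0.03 to 0.43 and -0.45 to 0.59. With FOSL2, which encodes the related Fra-2, FOSL1 made up most of the summed FPKM of the FOS family, 42.9% to 54.1% by itself. FOSL2 rose on TiB2 (198 against 141 CPM, 0.49 ± 0.10, edgeR adjusted p = 0.00544) and stood at 150.2 CPM on the HA coating (0.09 ± 0.20, edgeR adjusted p = 0.820).

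EGR1 (ENSG00000120738, chromosome 5, 138465479 to 138469303) lay at 19.1, 15.1 and 16.4 CPM on bare alloy and at 26.4, 23.7 and 30.4 CPM on TiB2. Its HA coating levels were 26.7, 11.6 and 25.9 CPM. All 3 TiB2 libraries and 2 HA coating libraries were above bare alloy, and HA coating replicate 2 was below it. EGR1 rose by 0.67 ± 0.12 on TiB2 (edgeR adjusted p = 0.00414), with the call kept without any 1 library and lost with a spread shared by all 9 (edgeR adjusted p = 0.149). The HA coating difference was 0.33 ± 0.30 (edgeR adjusted p = 0.509), and 0.63 without HA coating replicate 2 (edgeR adjusted p = 0.0818). Its relatives EGR2 and EGR3 had means of 0.111 to 0.697 CPM on the 3 surfaces and passed in no comparison (edgeR adjusted p = 0.313 to 0.852).

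IER3 (ENSG00000137331, chromosome 6, 30743199 to 30744548) had the largest difference from bare alloy of the 10 genes on both coated surfaces. It lay at 23.5, 19.5 and 22.8 CPM on bare alloy, 134, 102 and 155 CPM on TiB2 and 84.4, 53.9 and 145 CPM on the HA coating. The lowest coated library, HA coating replicate 2, was above the highest bare alloy library. IER3 rose by 2.57 ± 0.15 on TiB2 (edgeR adjusted p = 6.09e-06) and by 2.09 ± 0.32 on the HA coating (edgeR adjusted p = 0.00549). Both calls held without any 1 library, with differences of 2.42 to 2.71 and 1.66 to 2.37. The antisense gene IER3-AS1 had 0 to 6 counts.

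ETV4 (ENSG00000175832, chromosome 17, 43527846 to 43579620) lay at 6.39, 7.01 and 8.10 CPM on bare alloy, 18.1, 17.2 and 17.6 CPM on TiB2 and 15.98, 11.01 and 16.3 CPM on the HA coating. Each coated library was above each bare alloy library, and the TiB2 libraries differed little among themselves. ETV4 rose by 1.30 ± 0.12 on TiB2 (edgeR adjusted p = 0.000101), with every call kept when 1 library was left out. It also rose on the HA coating, by 1.00 ± 0.22 (edgeR adjusted p = 0.0225), and the call was lost without any 1 of the bare alloy libraries (edgeR adjusted p = 0.078 to 0.106). Part of ETV4 overlaps with DHX8 on the other strand.

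ETV5 (ENSG00000244405, chromosome 3, 186046314 to 186110318), the close relative of ETV4, passed in no comparison. Its levels were 90.8, 89.8 and 83.5 CPM on bare alloy, 93.0, 82.8 and 74.7 CPM on TiB2 and 83.6, 59.7 and 74.3 CPM on the HA coating. The surfaces overlapped, and the differences were -0.08 ± 0.09 on TiB2 (edgeR adjusted p = 0.580) and -0.29 ± 0.17 on the HA coating (edgeR adjusted p = 0.309). ETV1, the other PEA3 gene, fell on TiB2 (26.1 against 52.7 CPM, -1.02 ± 0.09, edgeR adjusted p = 7.3e-05). On the HA coating ETV1 was also lower but did not pass (36.3 CPM, -0.55 ± 0.17, edgeR adjusted p = 0.0761). Within the family ETV4 made up 7.94% to 10.5% of the summed FPKM for bare alloy, 21.4% to 24.2% for TiB2 and 17.6% to 22.3% for the HA coating, while ETV5 stayed the largest part in each library at 58.4% to 69.0%.

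DUSP6 (ENSG00000139318, chromosome 12, 89347235 to 89352501) lay at 29.3, 29.1 and 29.7 CPM on bare alloy and at 26.9, 24.4 and 30.9 CPM on TiB2. With the HA coating it lay at 42.7, 41.2 and 73.9 CPM. All HA coating libraries were above the other 6, and replicate 3 was far above the rest. The difference from bare alloy was 0.83 ± 0.23 (edgeR adjusted p = 0.0524, and 0.00702 to 0.184 over the other settings that were tried). It passed in 2 of 6 fits with 1 library left out. These were without HA coating replicate 3, at 0.52 (edgeR adjusted p = 0.0414), and without replicate 1, at 0.97 (edgeR adjusted p = 0.0269). On TiB2 the difference was -0.10 ± 0.10 (edgeR adjusted p = 0.527), with 95% limits of -0.33 to 0.13. HA coating against TiB2 gave 0.93 ± 0.24 (edgeR adjusted p = 0.159; 0.014 to 0.563 over the other settings that were tried).

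Within the HA coating, replicate 2 was the lowest library in CPM for all 10 genes. In FPKM, JUN was slightly lower in replicate 3 (15.86) than in replicate 2 (15.93). Over all 20117 genes tested, replicate 2 was the lowest of the 3 in CPM for 31.0%, and for 37.2% of the 6301 genes with a mean FPKM of at least 5. This library had the strongest trend of counts with GC content and length, which accounted for 9.28% to 11.8% of its deviations against at most 5.97% in other libraries. After that trend was taken out it was still the lowest for all 10 genes, against 34.1% and 41.8% of the same 2 sets of genes where GC content was known. The 10 transcripts had 46.7% (DUSP6) to 64.9% (JUNB) GC, against a median of 48.3% over the genes tested. On bare alloy no library was lowest or highest for more than 5 of the 10.

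Genes outside the 10 with the most similar course were sought for 4 of them among 6221 candidates. The measure was the root mean square difference of log2(CPM + 0.5), centred on each gene's mean, over the 9 libraries. The added 0.5 narrows the course of a gene with low levels, such as FOS at 0.735 to 3.43 CPM. For FOS the nearest genes were PPIF, a mitochondrial cyclophilin, at 0.11, ALAS1, the first enzyme of heme synthesis, at 0.13, and ST6GALNAC4 at 0.17. For FOSL1 they were SLC16A3, a lactate exporter (0.08), DAPK3 (0.10) and RETSAT (0.11), and for EGR1 FADS3 (0.16), LTBR, the lymphotoxin receptor (0.19), and TNIP1, an inhibitor of NF-kB signalling (0.20). Nearest to DUSP6 were GPX1, a glutathione peroxidase (0.10; 72.8, 63.9 and 112 CPM on bare alloy, TiB2 and HA coating), CCDC167 (0.13) and COX14 (0.14).

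Other genes of the same pathways were taken from 6 lists, chosen with the same knowledge. Their counts stand beside 12.9% of all genes up and 12.2% down on TiB2, and 5.02% up and 4.88% down on the HA coating. Of 13 tested AP-1 partners and relatives, 5 rose and 5 fell on TiB2 (median 0.24), and 3 rose and 1 fell on the HA coating (median 0.09). ATF3, a stress-induced partner of Jun, rose on both, by 1.41 ± 0.25 (edgeR adjusted p = 0.00285) and 1.17 ± 0.24 (edgeR adjusted p = 0.02). BATF3, a Jun partner best known from immune cells, rose by 1.20 ± 0.35 and 2.59 ± 0.54, and MAFG, a small Maf protein, by 1.09 ± 0.09 and 0.66 ± 0.15. MAF fell on TiB2 (-1.65 ± 0.44) at low levels, from 0.720 to 0.229 CPM, with 10 to 17 counts per TiB2 library. On the HA coating MAF did not pass (-0.71 ± 0.56, edgeR adjusted p = 0.449). The BATF3 libraries of the HA coating ran from 1.13 to 5.66 CPM, and without replicate 3 the difference was 1.82 (edgeR adjusted p = 0.0391). With 1 library left out, BATF3 kept its call in 1 of 6 fits on TiB2 and 2 of 6 on the HA coating, MAF in 3 on TiB2, and ATF3 and MAFG in 3 each on the HA coating.

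Of 20 other immediate early genes tested, 6 rose and 1 fell on TiB2 (median 0.19), and 1 rose and 2 fell on the HA coating (median 0.13), where 25.1% and 9.89% of all genes were called. NR4A3, an orphan nuclear receptor, rose by 2.17 ± 0.46 on TiB2 from 0.387 to 1.75 CPM, and by 2.88 without bare alloy replicate 3. TRIB1, a pseudokinase, and IER5 both rose by 1.13 there, and IER2 rose from 66.1 to 99.4 CPM (0.59 ± 0.12, edgeR adjusted p = 0.00769). NR4A3 and TRIB1 were also higher on the HA coating without passing, at 1.49 ± 0.52 and 0.55 ± 0.20 (edgeR adjusted p = 0.103 and 0.122). IER5 also rose on the HA coating (0.94 ± 0.25, edgeR adjusted p = 0.0457; kept in 2 of 6 fits with 1 library left out), where IER2 stood at 58.8 CPM (-0.18 ± 0.22, edgeR adjusted p = 0.644). PLK2, a kinase induced by serum, had lower levels and passed on both surfaces, at -1.06 ± 0.07 (TiB2, 89.3 CPM) and -1.39 ± 0.17 (HA coating, 71.9 CPM), from 187 CPM. KLF2 fell on the HA coating from 3.14 to 0.408 CPM (-2.95 ± 0.59, edgeR adjusted p = 0.0165) and was also lower there than on TiB2 (-2.42 ± 0.42, edgeR adjusted p = 0.0352). These KLF2 calls held in 3 and 2 of 6 fits with 1 library left out. The KLF2 libraries of bare alloy ran from 1.04 CPM in replicate 1 to 4.28 CPM. Those of TiB2 ran from 1.90 to 2.71 CPM and those of the HA coating from 0.202 to 0.560 CPM. The 4 lowest libraries for KLF2 were thus bare alloy replicate 1 and the HA coating, 1 side of the 22-gene split. The part of that split in the KLF2 differences was not tested. Without bare alloy replicate 1 the difference of the HA coating from bare alloy was -3.36 (edgeR adjusted p = 0.00663). Without replicate 2 or replicate 3 of bare alloy it was -2.71 or -2.66 (edgeR adjusted p = 0.0682 and 0.0672).

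Of 23 further ERK targets and feedback genes, 6 rose and 5 fell on TiB2 (median 0.21), and 6 rose and 1 fell on the HA coating (median 0.06), beside 25.1% and 9.89% of all genes called. LIF, an IL-6 family cytokine, rose from 50.3 CPM to 298 (TiB2) and 208 CPM (HA coating; 2.56 ± 0.14 and 2.05 ± 0.21). HBEGF, a ligand of the EGF receptor, rose by 0.86 ± 0.20 and 1.29 ± 0.26, with the HA coating call kept in 4 of 6 fits with 1 library left out. MYEOV rose by 1.18 ± 0.38 and 1.58 ± 0.42, with the call kept in 1 of 6 fits with 1 library left out on each surface. EPHA4, an ephrin receptor, fell on both (-1.78 ± 0.24 and -1.72 ± 0.24).

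In the same list DUSP4, a nuclear ERK phosphatase, rose on TiB2 (6.71 against 3.23 CPM, 1.05 ± 0.21, edgeR adjusted p = 0.0057) and DUSP5, another, rose on the HA coating (15.3 against 7.86 CPM, 0.95 ± 0.25, edgeR adjusted p = 0.0470), a call kept in 2 of 6 fits with 1 library left out. DUSP4 on the HA coating (0.71 ± 0.29, edgeR adjusted p = 0.156) and DUSP5 on TiB2 (0.53 ± 0.22, edgeR adjusted p = 0.111) were also higher without passing. Neither gene passed between the coatings (edgeR adjusted p = 0.602 and 0.423). SPRY2 and SPRY4, Sprouty inhibitors of receptor signalling, fell on TiB2 (-0.82 ± 0.14, edgeR adjusted p = 0.00232; -0.57 ± 0.11, edgeR adjusted p = 0.00394). Their HA coating differences were -0.53 ± 0.20 (edgeR adjusted p = 0.127) and -0.73 ± 0.20 (edgeR adjusted p = 0.0544). DUSP1, the broad MAPK phosphatase that glucocorticoids raise, lay at 47.8, 47.3 and 38.2 CPM on bare alloy, TiB2 and HA coating and passed in no comparison (edgeR adjusted p = 0.349 to 0.936). Of 8 phosphatases of JNK, p38 and all MAPKs, DUSP10 rose (0.52 ± 0.15) and DUSP14 fell (-0.50 ± 0.10) on TiB2, and the DUSP10 call was lost without any 1 library. This count of 2 in 8 is near the 25.1% of all genes called on TiB2. On the HA coating 0 of these 8 passed with edgeR, DESeq2 or limma, and 1 (DUSP10) had an unadjusted edgeR p under 0.05.

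Of 20 genes of the cascade itself, from GRB2 to the ELK factors, 5 rose and 3 fell on TiB2 (median 0.04), and 1 rose and 1 fell on the HA coating (median -0.04). The HA coating count of 2 in 20 is near the 9.89% of all genes called, and 25.1% were called on TiB2. RPS6KA1, the ERK-activated kinase RSK1, rose on both (1.08 ± 0.09 and 0.72 ± 0.16). Its relative RPS6KA2 fell on both (-0.43 ± 0.08 and -0.95 ± 0.24), and ELK3, an ETS factor that works with serum response factor, fell on TiB2 (-0.50 ± 0.06). MKNK2 and RPS6KA3, both kinases below ERK, rose on TiB2 (0.84 ± 0.17 and 0.50 ± 0.07). ELK3, MKNK2 and RPS6KA3 lay in the same directions on the HA coating without passing. They stood there at -0.50 ± 0.15, 0.52 ± 0.23 and 0.42 ± 0.15 (edgeR adjusted p = 0.069, 0.189 and 0.112). The HA coating call of RPS6KA1 held in 3 of 6 fits with 1 library left out, and that of RPS6KA2 in 1 of 6.

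Of the matrix proteases and inhibitors linked to AP-1, 3 of 7 tested rose on TiB2 and 2 of 8 on the HA coating, beside 12.9% and 5.02% of all genes up. MMP1, the interstitial collagenase, lay at 3.24 CPM on bare alloy, 15.5 CPM on TiB2 and 107 CPM on the HA coating, where single libraries had 52.2, 65.1 and 205 CPM. It was the member of these lists that passed upward between the coatings (2.78 ± 0.49, edgeR adjusted p = 0.0415), a call kept in 2 of 6 fits with 1 library left out. Without HA coating replicate 3 the MMP1 difference was 1.91 between the coatings and 4.18 in place of 5.03 against bare alloy. PLAT, the tissue plasminogen activator, rose by 3.10 ± 0.13 on TiB2 and by 2.27 ± 0.18 on the HA coating, from 24.8 CPM on bare alloy to 213 and 119.9 CPM.

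**Figure D4:**
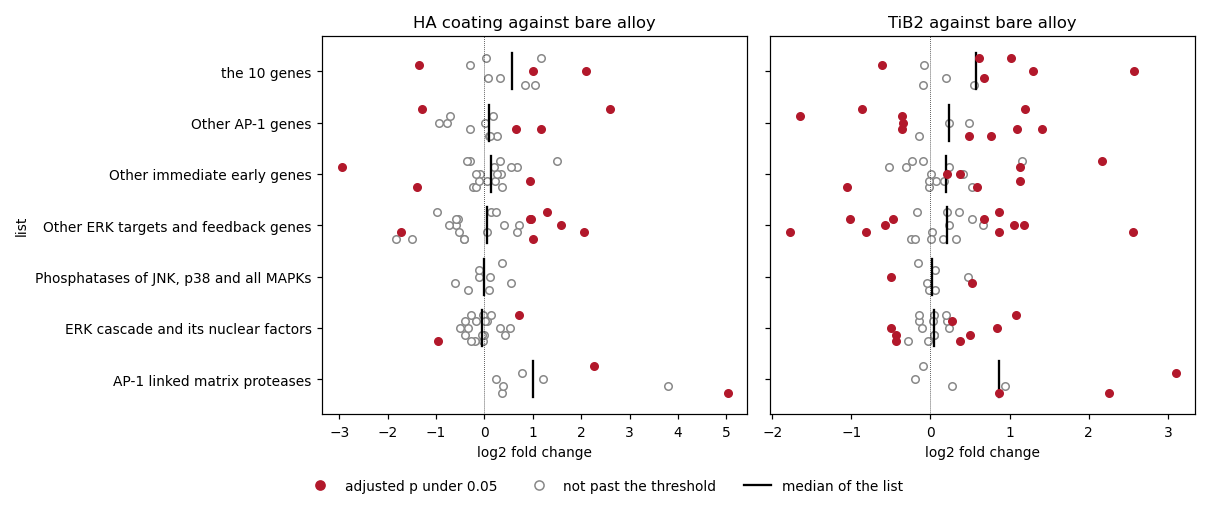
log2 fold change of each tested member of the 10 genes and of the 6 wider lists on the HA coating (left) and TiB2 (right) against bare alloy, with filled points past the edgeR threshold and a bar at the median of each list. The medians of the 10 genes stand at 0.58 on both surfaces, that of the matrix proteases at 1.00 and 0.87, and those of the other lists between -0.04 and 0.24.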

How the data were processed

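The authors deposited a table of raw counts and FPKM values per gene for the 9 libraries. The submitters' processing notes name GRCh38 and, without roles, featureCounts 2.0.1, StringTie 2.1.4, HISAT2 2.2.1, cutadapt 2.10 and limma. For strand use and multiply mapped reads the setting is not given in the sources used here. Groups came from the sample titles. Counts were compared over the 6 libraries of each comparison with edgeR 4.0.16 (R 4.3.3): filterByExpr, TMM scaling, quasi-likelihood F test, two-sided, Benjamini-Hochberg adjustment over all genes tested, threshold 0.05. The SE is the log2 fold change divided by the square root of F. Alternatives used DESeq2 1.42.0, limma 3.58.1, other filters and scalings, a replicate block, an offset for GC content and length (GENCODE 29 transcripts) and fits without each library. A comparison of the HA coating and bare alloy with bare alloy replicate 1 alone, and another without that library and HA coating replicate 2, were added after seeing the data.

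On simulated data made for TiB2 against bare alloy (20152 genes), edgeR found 75% of the 2-fold and 93% of the 4-fold changes. The shares were 33% and 87% for HA coating against bare alloy with 20117 genes, and 35% and 88% for HA coating against TiB2 with 20086 genes. The simulations changed a small part of the genes, none with a low mean count, so these shares need not hold for the real comparisons. The 10 genes and the lists were chosen with earlier results of these data known. Named genes were the 10, 10 close relatives, and up to 4 further called genes per list and comparison with the largest change. Some genes that this rule names are not reported here. Beyond these, JUN and JUNB were set as a ratio after their values were seen. Similar genes were the nearest 3 with a mean FPKM of at least 5, on log2(CPM + 0.5). Comparisons with bare alloy share its 3 libraries. Other tools were Python 3.11.15, pandas 2.3.3, numpy 2.4.6 and matplotlib 3.10.9.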

Additional observations from a re-analysis of the deposited data

How the results depend on the processing

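Of the 10 genes, IER3 and JUN on the HA coating and IER3 and ETV4 on TiB2 kept their calls under every setting in the full comparison or with 1 library left out that tested them. ETV4, FOS and FOSB were not tested at a mean FPKM of at least 5. On the HA coating 3 of the 10 genes were called, 5 with DESeq2, limma on log2(FPKM + 1), the fit of all 9 libraries or the GC and length offset, and 2 to 4 with 1 library left out; 0 were called against bare alloy replicate 1 alone and 0 without that library and HA coating replicate 2. On TiB2 6 were called, 2 in the fit of all 9 libraries and 4 to 7 with 1 library left out. Between the coatings 0 were called, 2 with DESeq2 and 0 to 2 with 1 library left out. Over all genes, calls on the HA coating numbered 1990, with 3562 by DESeq2, 1093 with no filter, 950 at a mean FPKM of at least 5, 3544 with all 9 libraries, 3450 with the GC and length offset, 598 to 4185 with 1 library left out, and 286 and 115 in the smaller fits. On TiB2 they numbered 5059, with 2594 at a mean FPKM of at least 5 and 2188 with all 9 libraries. Between the coatings they numbered 127, with 501 by DESeq2, 35 with no filter, 13 at a mean FPKM of at least 5, 70 with all 9 libraries and 49 to 1224 with 1 library left out. Stricter filters and left-out libraries test fewer genes or samples, and for the rest the cause was not tested. Same-numbered libraries of different surfaces had correlations of -0.136 to 0.107 in their deviations, against -0.158 to 0.238 for libraries of different number. These values show no sign of pairing by number, but cannot show that there was none. With the replicate block 195 genes were called between the coatings, and none of the 10 genes changed its call. Signs turned only among values that did not pass. On the HA coating JUNB (0.04) stood at -0.08 at a mean FPKM of at least 5, at 0.00 and -0.01 by limma on log2(FPKM + 1) and log2(FPKM + 0.1), at -0.02 with the replicate block and at -0.16 to 0.35 with 1 library left out. FOSL1 (0.07) stood at -0.03 at a mean FPKM of at least 5 and at -0.17 to 0.27 with 1 library left out. Between the coatings FOS (0.14) ranged from -0.05 to 0.31 and FOSL1 (-0.14) from -0.39 to 0.06 with 1 library left out. Over all settings, 406 values of the 10 genes kept direction and call, 26 lost a call, 18 gained one and 11 turned sign. FOS and FOSB rest on 42 to 229 counts per library. The SE of FOSB on the HA coating was 0.55, and 0.35 without bare alloy replicate 1.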
